A study of Mus musculus with 6 samples.

Results

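Caveolae are small flask-shaped pits of the plasma membrane, and the genes described here encode the proteins of their coat and neck: the caveolins Cav1 and Cav2, the cavins Cavin1, Cavin2 and Cavin3, and the EHD ATPases Ehd2 and Ehd4. All 7 were found in the deposited table by their gene symbol, out of 22134 genes listed. They were measured in 3 libraries of creeping fat, the mesenteric fat that wraps injured bowel, from wild-type mice given repeated colonic cautery injury, and in 3 libraries of mesenteric adipose tissue from uninjured wild-type mice, called control here. Total RNA was sequenced after removal of ribosomal RNA, and levels are in FPKM, fragment numbers adjusted for transcript length and library size. The labels give neither the age or sex of the mice nor whether each sample is its own animal, so the p-values rest on the spread between these samples alone, technical spread included.

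As background, caveolin-1 is a hairpin membrane protein that binds cholesterol and oligomerises, and without it non-muscle cells form no caveolae. Caveolin-2 joins it in hetero-oligomers and depends on it to reach the cell surface. The cavins are soluble proteins that assemble around the caveolin oligomers, EHD2 forms rings at the neck that hold the pit at the surface, and caveolae flatten under membrane stretch. Adipocytes and capillary endothelium are among the cell types richest in them, and in fat they take part in fatty acid uptake and insulin receptor signalling.

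The 7 genes differ in where they lie and in what precedes them. In GRCm38.p6, the build that mm10 denotes, Cav2 (chr6:17281185-17289130) and Cav1 (chr6:17306335-17341328) are neighbours on the plus strand with 17204 bases between them. Cavin2 lies on the plus strand at chr1:51289126-51302960, Cavin1 on the minus strand at chr11:100956736-100970617, and Ehd4 on the minus strand at chr2:120089487-120154575. Cavin3 (chr7:105480616-105482197) and Ehd2 (chr7:15946963-15967535) are on the minus strand of chromosome 7. All are protein coding. The promoters of the caveolin neighbours, of Cavin2 and of Ehd4 are shown because the first 3 genes were the ones below control in every library and Ehd4 the one above. Each is the RefSeq window around the start site, 5′ to 3′ and mostly upstream of it, at chr6:17306085-17306384 (plus strand) for Cav1, chr6:17280935-17281234 (plus) for Cav2, chr1:51288876-51289175 (plus) for Cavin2 and chr2:120154526-120154825 (minus) for Ehd4. Capitals mark matches, on either strand, to the GC box GGGCGG, the CCAAT box CCAAT, the TATA box TATAAA and the nuclear receptor hexamer AGGTCA.
Cav1: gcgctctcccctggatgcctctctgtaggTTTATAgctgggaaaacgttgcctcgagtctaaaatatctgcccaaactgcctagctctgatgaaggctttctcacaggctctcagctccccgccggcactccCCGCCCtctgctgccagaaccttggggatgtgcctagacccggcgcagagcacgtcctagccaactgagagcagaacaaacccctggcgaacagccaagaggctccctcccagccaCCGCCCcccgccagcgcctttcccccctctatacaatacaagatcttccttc
Cav2: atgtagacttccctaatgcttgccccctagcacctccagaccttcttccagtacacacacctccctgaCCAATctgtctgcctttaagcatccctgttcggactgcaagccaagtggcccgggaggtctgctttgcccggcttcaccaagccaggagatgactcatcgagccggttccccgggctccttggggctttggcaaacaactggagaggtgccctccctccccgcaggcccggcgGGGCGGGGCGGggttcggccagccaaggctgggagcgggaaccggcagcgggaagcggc
Cavin2: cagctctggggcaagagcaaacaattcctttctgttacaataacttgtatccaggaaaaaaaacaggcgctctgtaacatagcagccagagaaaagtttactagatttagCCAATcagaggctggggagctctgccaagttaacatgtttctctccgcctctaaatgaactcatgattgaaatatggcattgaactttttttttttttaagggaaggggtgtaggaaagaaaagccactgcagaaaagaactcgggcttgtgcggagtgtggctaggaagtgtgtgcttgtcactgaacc
Ehd4: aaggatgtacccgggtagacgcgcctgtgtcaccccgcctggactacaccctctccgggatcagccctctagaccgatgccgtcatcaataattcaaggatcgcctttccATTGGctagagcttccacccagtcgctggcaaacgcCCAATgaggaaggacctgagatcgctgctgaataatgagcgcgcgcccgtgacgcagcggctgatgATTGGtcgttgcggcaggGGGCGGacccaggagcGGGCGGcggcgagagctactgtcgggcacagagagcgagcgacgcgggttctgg

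Promoters were matched for 6 of the 7 members, all but Cavin3. The GC box was found in 5 of the 6 windows and the CCAAT box in 5 of the 6, against 35.6% and 37.4% of all 32817 promoter windows of that length. The TATA box letters were in Cav1 alone of the 6, on the minus strand far upstream of its start site, against 13.6% of all windows, and the hexamer was in none of the 6, against 16.3%. No motif searched is contained in another. Cavin2 stood apart in base composition, with 43.3% G and C and 4 CpG dinucleotides. The other 5 windows had 59.3% to 66.7% G and C and 13 to 29 CpG, and the medians of all windows were 52.7% and 7. These matches are descriptions of the letters in a window and say nothing of which factors bind there.

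The libraries held 32837045 to 36158204 reads in creeping fat and 31186018 to 43415696 in controls, as recovered from the FPKM values. Between 1465 and 81996 reads lay behind each value of a member, so counting error is small beside the spread between libraries. The fold changes below are log2 differences of creeping fat minus control on the scale log2(FPKM + 1), which understates the change of low genes, from limma fitted over 12812 genes that reached 1 FPKM in 3 or more libraries. A gene was called at a Benjamini-Hochberg adjusted p under 0.05 over all of these genes. Markers that define adipose tissue were present in both groups: Fabp4, the fatty acid carrier of adipocytes, had 372 to 843 FPKM in creeping fat and 1703 to 4953 FPKM in controls. Control 2 stood apart in the controls, with a summed level of 421 FPKM over 8 B cell markers against 108 and 130 FPKM in control 1 and 3; creeping fat had 46.6 to 204 FPKM, and 0 of the 8 rose or fell. Among the marker lists, those of other organs differed most between the groups. Seminal vesicle markers (9 in the table, 1 of them at 0 in all controls) summed to 15981 to 30941 FPKM in creeping fat and 0.171 to 53.5 FPKM in controls. Exocrine pancreas markers (31 in the table, 1 at 0 in all creeping fat) summed to 166, 6453 and 33.4 FPKM in creeping fat 1 to 3. In control 1 to 3 they summed to 39768, 47732 and 18711 FPKM. Their part in the results below was not tested, except that FPKM were also rescaled without them.

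The comparison asks how the transcripts of the caveola coat differ between creeping fat and uninjured mesenteric fat. Both caveolins and Cavin2 were at about 0.26 to 0.32 of the control mean in creeping fat, and their values there lay below those of every control library. Cavin1, Cavin3 and Ehd2 were at 0.612 to 0.702 of the control mean with groups that overlapped, and Ehd4 stood 1.60-fold higher, above every control. By limma, 2 of the 7 fell (Cav2 and Cavin2), against 6.81% of all genes tested, and 1 rose (Ehd4), against 9.35%. The groups did not overlap for 3 members that were lower and 1 that was higher in creeping fat, against 16.9% and 20.2% of all genes. The fold change was negative for 6 of the 7, and for 6193 of the 12812 genes. The median was -0.61 over the members and 0.02 over all genes. In bulk tissue, fewer cells of a type and less RNA per cell cannot be told apart.

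Cav1, the structural caveolin, had 98.2, 135 and 115 FPKM in creeping fat 1 to 3, against 452, 166 and 638 FPKM in control 1 to 3. The groups did not overlap, and control 2 was much nearer to creeping fat 2 than to the other controls. The difference of -1.65 ± 0.47 (SE) narrowly missed the threshold (adjusted p = 0.0596), with means of 116 ± 18.5 FPKM in creeping fat and 419 ± 237 FPKM in controls (SD, n = 3 each). It passed after quantile normalization (-1.75, adjusted p = 0.0368) and after rescaling without the seminal vesicle and pancreas markers (-1.68, adjusted p = 0.0474). The adjusted p was 0.103 with no filter on low values and 0.176 with each gene's own residual spread in place of limma's moderated errors (no moderation). With control 2 left out the difference was -2.21 (adjusted p = 0.000736). With any other single library left out it was -1.25 (without control 3) to -1.77 (without creeping fat 2), with an adjusted p of 0.121 to 0.189.

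Cav2, the partner of Cav1, was the least abundant member in creeping fat, at 12.1, 15.5 and 13.6 FPKM, against 56.3, 23.0 and 78.2 FPKM in control 1 to 3. Every creeping fat library was below every control, with control 2 the nearest. Cav2 fell by 1.70 ± 0.42 (adjusted p = 0.0359). The call was lost when any single library other than control 2 was left out (adjusted p of 0.0857 to 0.129).

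Cavin2, the cavin that helps to shape caveolae in a tissue-specific way, had 26.3, 30.3 and 33.0 FPKM in creeping fat and 106, 56.8 and 113 FPKM in control 1 to 3. The creeping fat values were close together and the lowest control was well above them. Cavin2 fell by 1.53 ± 0.28 (adjusted p = 0.0130). The adjusted p was 0.0628 without creeping fat 1 and 0.0541 without control 3, and under 0.05 with each other library left out.

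Cavin1, the cavin that caveola formation requires, had 126, 145 and 164 FPKM in creeping fat, against 237, 146 and 284 FPKM in control 1 to 3. Control 2 was within the creeping fat range, and the difference of -0.57 ± 0.27 did not pass (adjusted p = 0.209). Cavin3, the cavin that binds protein kinase C delta, had 85.2, 76.5 and 75.2 FPKM in creeping fat, against 126, 50.2 and 161 FPKM in control 1 to 3. Here control 2 was the lowest of all 6 libraries, and the difference was -0.35 ± 0.41 (adjusted p = 0.634).

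Ehd2, the ATPase of the caveolar neck, had 83.8, 89.4 and 80.6 FPKM in creeping fat, against 156, 74.7 and 184 FPKM in control 1 to 3. Control 2 was again the lowest, and the difference of -0.61 ± 0.33 did not pass (adjusted p = 0.277). Ehd4, a relative of Ehd2 that acts mainly in endosomal traffic and has also been found at caveolae, had 44.0, 39.4 and 42.0 FPKM in creeping fat, against 24.9, 27.3 and 26.3 FPKM in control 1 to 3. The 3 creeping fat values were all above the 3 control values, and both groups were tight. Ehd4 rose by 0.65 ± 0.13 (adjusted p = 0.0161), and its adjusted p was 0.0561 to 0.0856 without any 1 creeping fat library or control 3.

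**Figure D1:**
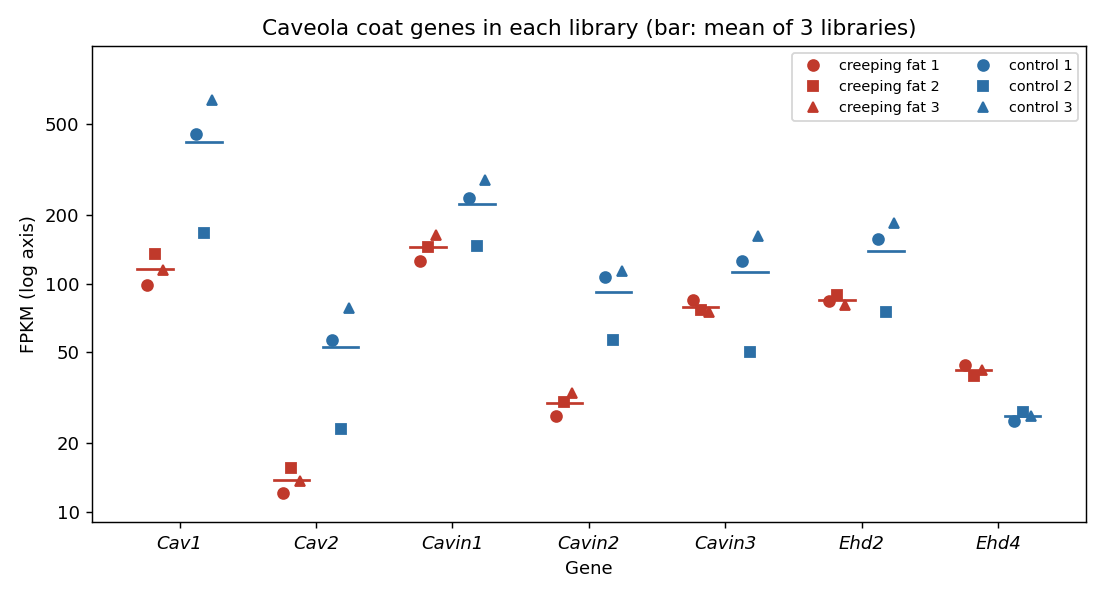
FPKM on a log axis of the 7 genes in each of the 3 creeping fat (red) and 3 control (blue) libraries, with a bar at each group's mean. Control 2 (blue square) was the lowest control for every gene but Ehd4, and lay within or below the creeping fat values for Cavin1, Cavin3 and Ehd2.

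The number of members called turned on single libraries. Without creeping fat 1 or without control 3, 0 members were called in either direction. Without control 3 the differences were -0.01 for Cavin3, -0.35 for Ehd2 and -0.37 for Cavin1 (adjusted p of 0.494 to 0.990). Control 2 moved the count the other way. In the 6 genes other than Ehd4 it had the lowest control value, and over the 7 genes its log2 values were 0.59 from the creeping fat mean and 1.21 from the mean of the other controls (root mean square distance). Without control 2, 6 of the 7 fell, against 14.5% of all genes, and 1 rose, against 22.6%. Cavin1 then stood at -0.84 (adjusted p = 0.00923), Cavin3 at -0.85 (adjusted p = 0.00646), Ehd2 at -0.996 (adjusted p = 0.00233) and Ehd4 at 0.68 (adjusted p = 0.0052). Without control 2 the control group is 2 libraries, and the median over all genes is 0.13, against 0.02 with all libraries.

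**Figure D2:**
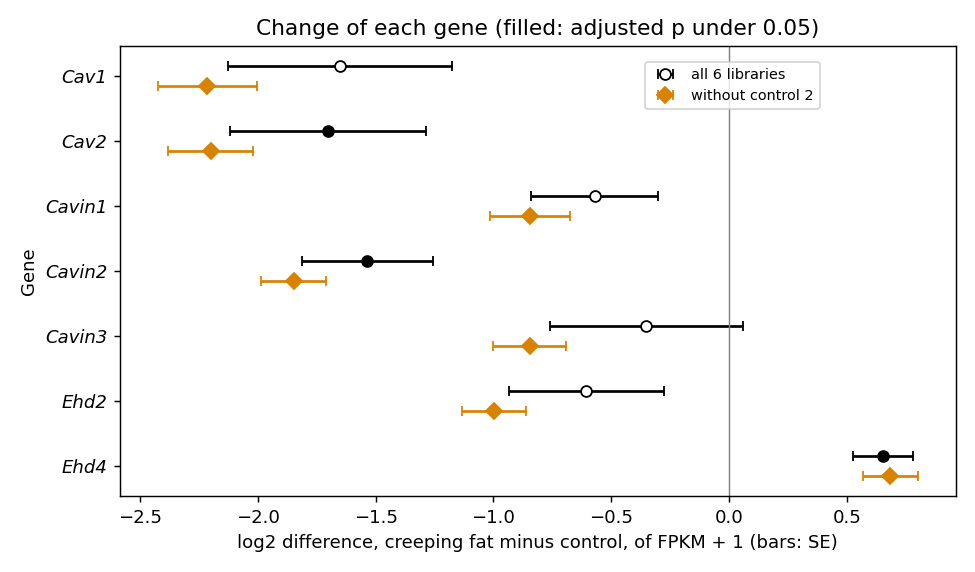
The log2 difference, creeping fat minus control, of each gene with its SE, with all 6 libraries (black) and without control 2 (orange); filled symbols have an adjusted p under 0.05. The 3 filled black symbols are Cav2, Cavin2 and Ehd4, and all orange symbols are filled.

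The spread of the members differed between the groups. In controls the highest library was 3.83 times the lowest for Cav1, 3.41 times for Cav2, 3.21 times for Cavin3 and 2.46 times for Ehd2. Control 2 was the lowest control for each of these genes. Cav1 had 166 FPKM there, against 452 and 638 FPKM in control 1 and 3. In creeping fat the highest library was 1.11 to 1.38 times the lowest for all 7 genes. The same spread was not computed over all genes, so the contrast is not read as a trait of the members. The coefficient of variation was 5.25% (Ehd2) to 16.0% (Cav1) in creeping fat and 31.5% (Cavin1) to 56.7% (Cav1) in controls for every member but Ehd4, whose values were 5.58% in creeping fat and 4.57% in controls.

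FPKM are per length, so levels can be set side by side between genes only as far as the lengths used hold. The length recovered from the values was 4950 bases for Cavin1, whose GENCODE M21 exons cover 3587. It was 1026 for Cavin3 (exons 1662), 2962 for Cav1 (3444) and 3593 for Ehd4 (4007). For Cav2, Cavin2 and Ehd2 it was near the exon length. With other lengths the order, the shares and the ratios between genes given below could differ. In creeping fat the order of the means was Cavin1 (145 FPKM), Cav1 (116 FPKM), Ehd2 (84.6 FPKM), Cavin3 (78.9 FPKM), Ehd4 (41.8 FPKM), Cavin2 (29.9 FPKM) and Cav2 (13.7 FPKM). The ranges of Cavin1 and Cav1 overlapped, as did those of Ehd2 and Cavin3, while the other neighbours in this order were separate. In controls the order was Cav1 (419 FPKM), Cavin1 (223 FPKM), Ehd2 (138 FPKM), Cavin3 (112 FPKM), Cavin2 (92.1 FPKM), Cav2 (52.5 FPKM) and Ehd4 (26.2 FPKM), and there all neighbours overlapped. Cavin1 was above Cav1 in 3 of 3 creeping fat libraries, and Cav1 above Cavin1 in 3 of 3 controls.

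The make-up of the coat transcripts is described here without a test. The 7 genes summed to 476, 531 and 523 FPKM in creeping fat and 1160, 545 and 1484 FPKM in control 1 to 3. Cav1 held 20.6%, 25.4% and 21.9% of that sum in creeping fat and 39.0%, 30.5% and 43.0% in controls. Ehd4 held 9.26%, 7.41% and 8.02% in creeping fat, against 2.15%, 5.02% and 1.77% in controls. Neither pair of ranges overlapped. Shares of the same sum constrain each other, so a higher share need not mean a higher level. For each unit of cavin transcripts there were 0.464, 0.598 and 0.471 units of caveolin transcripts in creeping fat, against 1.08, 0.747 and 1.28 in control 1 to 3, again without overlap.

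**Figure D3:**
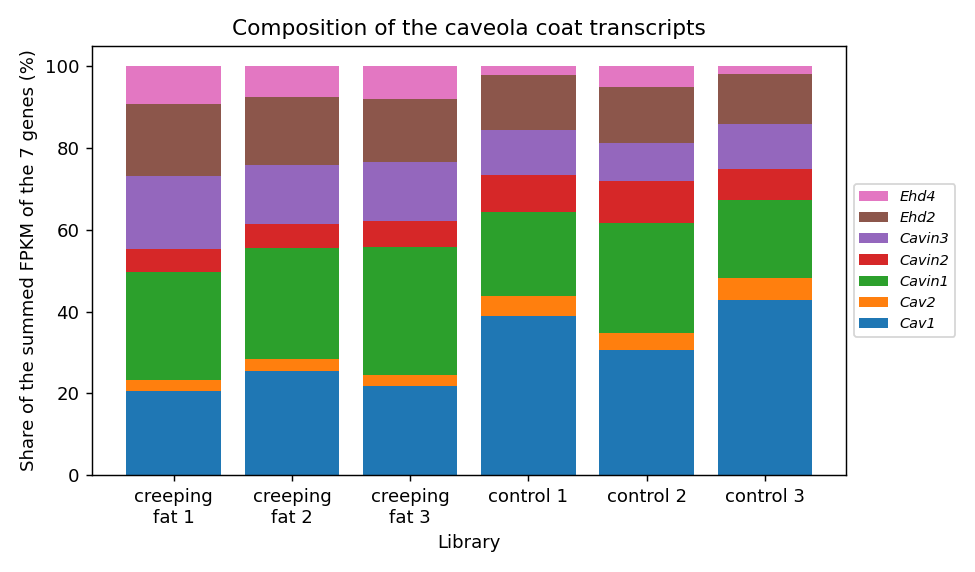
Share of each gene, in percent, in the summed FPKM of the 7 genes, in 3 creeping fat and 3 control libraries. The Cav1 share was 20.6% to 25.4% in creeping fat and 30.5% to 43.0% in controls. The Cavin3 share was 14.4% to 17.9% in creeping fat and 9.22% to 10.9% in controls. The mean Cavin3 level itself was lower in creeping fat (78.9 FPKM against 112 FPKM in controls, with groups that overlapped).

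Whether the members changed by different amounts was tested on each gene's log2 value minus that of Cav1 in the same library, which nearly cancels the scaling of a library. The noise of Cav1 then enters every gene, so errors from limma are given beside errors from each gene's own residuals, which were added once the data had been looked at. The caveolins kept nearly the same ratio to each other. The Cav1 level was 8.12, 8.72 and 8.41 times the Cav2 level in creeping fat and 8.03, 7.24 and 8.15 times in control 1 to 3. The change of Cav2 differed from that of Cav1 by -0.05, with a 95% interval of -1.39 to 1.29 by limma and -0.26 to 0.15 from its own residuals. Cavin2 differed from Cav1 by 0.12, with intervals of -1.15 to 1.39 and -0.70 to 0.94, so neither a larger nor a smaller change than that of Cav1 was detectable.

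The other 4 members were higher relative to Cav1 in every creeping fat library than in any control. The share of all genes that did so was not counted. Cav1 itself stood at percentile 2.16 of the fold changes, counted from the lowest, so this is not read as a trait of these 4. Cavin3 stood at 0.867, 0.566 and 0.656 of the Cav1 level in creeping fat and at 0.278, 0.302 and 0.253 in controls, a difference of 1.30 ± 0.62 (adjusted p = 0.0638). Cavin1 stood at 1.28, 1.07 and 1.43 times the Cav1 level in creeping fat, against 0.525, 0.880 and 0.446 in controls, a difference of 1.08 ± 0.60 (adjusted p = 0.0945). Ehd2 differed by 1.05 ± 0.62 (adjusted p = 0.111). Ehd4 differed by 2.30 ± 0.67, the 1 member called by limma (adjusted p = 0.00611), against 44.1% of all genes called higher and 0.390% lower relative to Cav1. Without creeping fat 1, 2 or 3 or control 1 that call was lost (adjusted p of 0.0558 to 0.151). With each gene's own residuals these 4 differences had intervals above 0, from 0.76 to 1.84 for Cavin3, 0.20 to 1.97 for Cavin1, 0.44 to 1.65 for Ehd2 and 0.56 to 4.05 for Ehd4, but no gene of the whole table was called (adjusted p = 0.134 for each of the 4). Without control 2 limma called all 4, but also 96.9% of all genes, so those calls are no mark of these members.

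**Figure D4:**
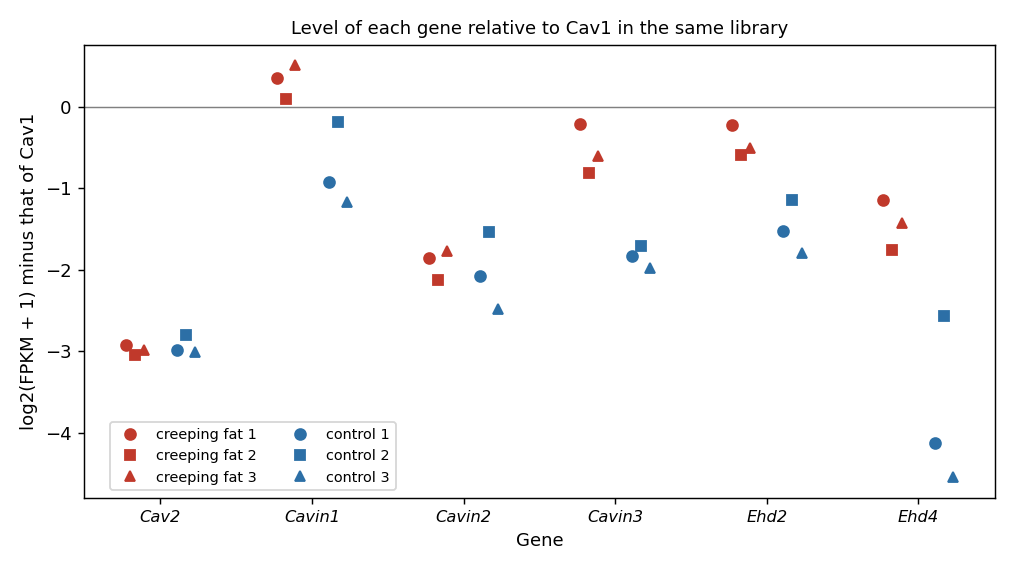
The log2(FPKM + 1) of 6 genes minus that of Cav1 in the same library, for 3 creeping fat (red) and 3 control (blue) libraries. Cav2 lay between -3.04 and -2.80 in all 6 libraries, while Cavin1, Cavin3, Ehd2 and Ehd4 were higher in every creeping fat library than in any control. The share of all genes that did so was not counted.

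Marker lists of cell types differed between the groups to unlike degrees. Of all genes tested, 9.35% were called higher and 6.81% lower. Of 22 tested adipocyte markers 20 fell and 0 rose, with a median of -2.63, and all 22 were lower at an unadjusted p under 0.05. None was at 0 in any library, and they summed to 1441 to 3557 FPKM in creeping fat and 6825 to 19236 FPKM in controls, lowest in control 2. With 1 library left out 14 to 21 fell, and 7 with no moderation. Of 18 blood endothelial markers 4 fell and 0 rose (9 and 0 at an unadjusted p under 0.05; 5 and 0 by voom), with a median of -0.50. The number that fell was 0 without creeping fat 1, creeping fat 3 or control 3, 2 without creeping fat 2 or control 1, and 6 without control 2. None was at 0, and they summed to 409 to 524 FPKM in creeping fat and 602 to 721 FPKM in controls, highest in control 2. Of 13 smooth muscle and pericyte markers 1 rose and 1 fell (594 to 885 FPKM summed in creeping fat, 322 to 723 FPKM in controls), and 4 rose and 0 fell without control 1. Of 12 fibroblast and progenitor markers 9 rose (8356 to 10685 FPKM summed in creeping fat, 997 to 1396 FPKM in controls), and of 12 macrophage markers 10 rose (3690 to 5843 FPKM in creeping fat, 835 to 1803 FPKM in controls). The macrophage count was 5 without creeping fat 1 or creeping fat 3, 6 without control 3, 12 without control 2 and 3 with no moderation, while the fibroblast count was 7 to 9 with 1 library left out. The part of these cell types in the caveola genes was not tested directly, but the members' changes were compared with those of the adipocyte and endothelial markers.

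No member was as much lower in creeping fat as the mean adipocyte marker. The mean log2 level of the 22 markers differed by -2.78. Relative to it each of the 7 was higher in every creeping fat library than in any control. The share of all genes that did so was not counted, so this is not read as a trait of the 7. The relative difference was smallest for Cav2 (1.08 ± 0.60, adjusted p = 0.0747), Cav1 (1.13 ± 0.53, adjusted p = 0.0354) and Cavin2 (1.24 ± 0.57, adjusted p = 0.0304). It was 2.17 ± 0.55 for Ehd2, 2.21 ± 0.54 for Cavin1, 2.43 ± 0.55 for Cavin3 and 3.43 ± 0.59 for Ehd4 (adjusted p of 0.000113 or less for each). Since 97.4% of all genes were called higher on this scale and 0.226% lower, the calls are no mark of the caveola genes. With errors from each gene's own residuals all 7 were called (adjusted p of 0.0289 or less), against 93.8% of all genes higher and 0.0702% lower. The call of Cav1 was lost without each library but creeping fat 2, and that of Cavin2 without each but creeping fat 2 and control 2.

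Against the mean of the 18 endothelial markers, which differed by -0.56, the members split. Cavin1 (-0.01 ± 0.32), Ehd2 (-0.04 ± 0.36) and Cavin3 (0.21 ± 0.43) had differences near 0. Their 95% intervals were -0.75 to 0.74, -0.88 to 0.79 and -0.78 to 1.20 by limma. From own residuals they were -1.03 to 1.02, -1.28 to 1.19 and -1.30 to 1.73. Control 2 had the lowest relative level of all libraries in each of these genes. Cavin3 stood at 2.04 to 2.09 in creeping fat, against 2.24, 0.78 and 2.56 in control 1 to 3. Cavin2 was lower relative to these markers by limma (-0.97 ± 0.32, adjusted p = 0.0359; 2.89% of all genes), a call that only control 2, when left out, did not end. Cav2 stood at -1.14 ± 0.44 (adjusted p = 0.058) and Cav1 at -1.09 ± 0.50 (adjusted p = 0.0958), and both were called without control 2 (-1.68 and -1.69, adjusted p = 0.000184 and 0.000442), where 6.15% of all genes were called lower. Ehd4 was higher by 1.22 ± 0.15 (adjusted p = 0.00123; 50.7% of all genes). Its relative level was 1.101 to 1.267 in creeping fat and -0.07 to -0.01 in controls, and the call held with each library left out in turn. From own residuals Ehd4 was again called (adjusted p = 0.00546, with 37.9% of all genes higher) and Cavin2 was not (adjusted p = 0.114, with 0.921% lower). Nor were Cav2 (adjusted p = 0.174) and Cav1 (adjusted p = 0.227) from own residuals.

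**Figure D5:**
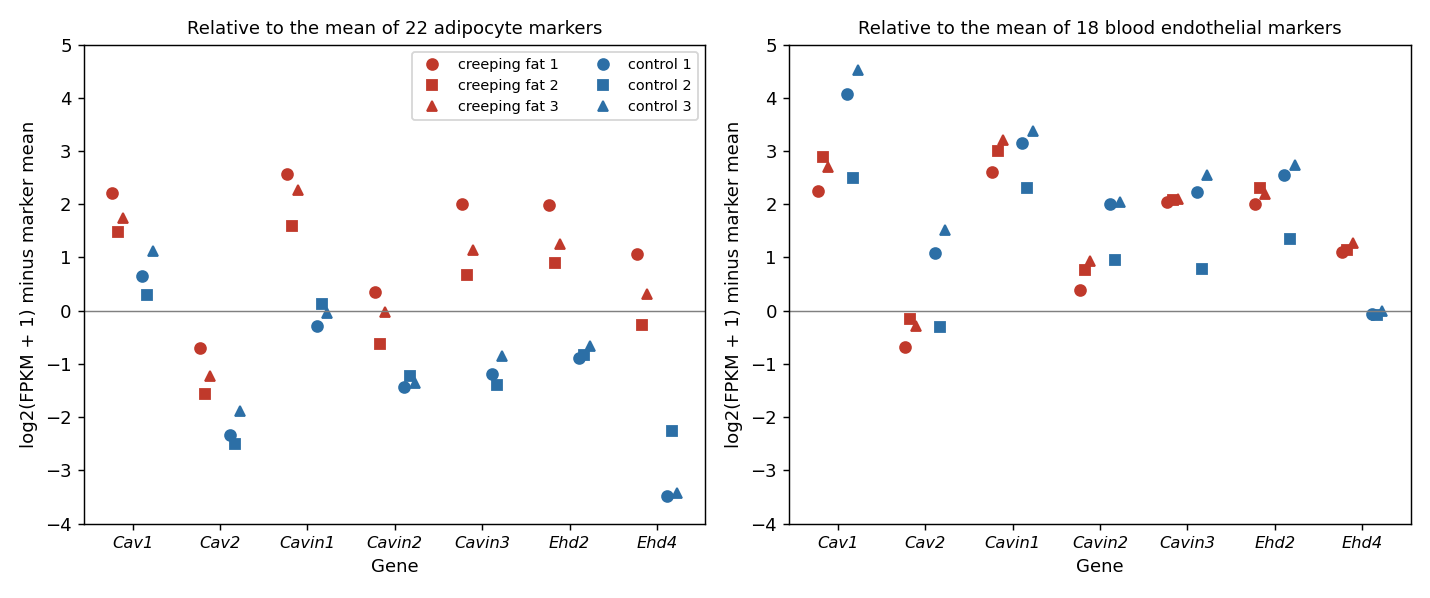
The log2(FPKM + 1) of each gene minus the mean over 22 adipocyte markers (left) or 18 blood endothelial markers (right) of the same library, for 3 creeping fat (red) and 3 control (blue) libraries. Against adipocyte markers all 7 genes were higher in every creeping fat library. Against endothelial markers Cavin2 was lower and Ehd4 higher in every creeping fat library, and the other 5 overlapped. The shares of all genes that separated in these ways were not counted.

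Other genes of caveolae and of the EHD and pacsin families showed no call. Of 12 on the list, 9 were tested and 0 rose or fell by limma or by voom, with a median of 0.00. By limma 9.35% of all genes rose and 6.81% fell. At an unadjusted p under 0.05, 1 of the 9 was higher and 1 lower. Cav3 and Cavin4, the muscle caveolin and cavin, and Pacsin1, a neuronal pacsin, were under the filter, with Cav3 and Cavin4 at most 0.816 FPKM in any library. Pacsin2, which bends membrane at the caveolar neck, had 15.4 ± 1.56 FPKM in creeping fat and 14.7 ± 0.882 FPKM in controls (0.05 ± 0.14, adjusted p = 0.848), and Pacsin3 had 3.25 ± 0.216 FPKM in creeping fat and 3.14 ± 0.713 FPKM in controls (SD, n = 3 each). Dnm2, the ubiquitous dynamin that cuts vesicles from the membrane, had 25.3 ± 0.632 FPKM in creeping fat and 25.7 ± 6.28 FPKM in controls. The neuronal dynamin Dnm1 had 18.9, 21.2 and 26.0 FPKM in creeping fat and 7.94, 16.4 and 12.5 FPKM in controls (0.83 ± 0.26, adjusted p = 0.0774).

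The other EHD genes did not pass. Ehd1, an ATPase of the recycling endosome, averaged 53.0 ± 4.51 FPKM in creeping fat and 68.6 ± 4.66 FPKM in controls (SD, n = 3 each). The groups did not overlap, but the difference of -0.37 ± 0.14 did not pass (adjusted p = 0.128). Ehd3 overlapped between the groups (-0.59 ± 0.44, adjusted p = 0.427). The flotillins, which mark membrane domains without caveolin, had -0.06 ± 0.15 for Flot2 (adjusted p = 0.829) and 0.40 ± 0.17 for Flot1 (adjusted p = 0.177), and neither passed. Without control 2, Ehd1 (-0.42, adjusted p = 0.0387) and Dnm1 (1.05, adjusted p = 0.0101) passed.

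The coat of the other main endocytic route, clathrin, had 1 call. Of 15 tested genes 1 rose and 0 fell, against 9.35% and 6.81% of all genes, with a median of 0.16. At an unadjusted p under 0.05, 3 were higher and 2 lower, and by voom 1 rose and 0 fell. In every creeping fat library 6 of the 15 were above every control and 2 below, against 20.2% and 16.9% of all genes. Ap2m1, the medium chain of the AP-2 adaptor, rose by 0.54 ± 0.14 (40.8 ± 1.34 FPKM in creeping fat against 27.8 ± 3.42 FPKM in controls, adjusted p = 0.0447), a call that was lost on leaving out any 1 library other than control 2 and on rescaling without the seminal vesicle and pancreas markers.

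Genes for proteins that reside in or signal from caveolae moved in both directions. Of 20 tested, 4 rose and 8 fell, against 9.35% and 6.81% of all genes, with a median of -0.34. Cd36, a fatty acid translocase of caveolae, fell by 2.61 ± 0.48, with 34.9, 55.5 and 49.8 FPKM in creeping fat and 394, 130 and 452 FPKM in control 1 to 3 (adjusted p = 0.0135). Every creeping fat value was below every control, and control 2 was again the nearest; the call held in 3 of 6 fits with 1 library left out, with an adjusted p of up to 0.0625. Ror1, a receptor tyrosine kinase-like protein, rose by 1.42 ± 0.13, with 5.80, 5.82 and 5.91 FPKM in creeping fat and 1.66, 1.66 and 1.38 FPKM in controls (adjusted p = 0.00169). Nos3, the endothelial nitric oxide synthase that caveolin-1 binds, fell by 1.32 ± 0.19 (7.90 ± 1.27 FPKM in creeping fat against 21.3 ± 4.38 FPKM in controls, adjusted p = 0.00657). Nos3, and Insr and Plvap below, were named after their values were seen. Ror1 and Nos3 were called with each library left out in turn. Slc2a4 is also an adipocyte marker and Gpihbp1 also an endothelial one, and both fell, with calls that held in 3 and 2 of those 6 fits. Insr, the insulin receptor, did not pass (-0.46 ± 0.21, adjusted p = 0.186), nor did Plvap, which forms the diaphragm of endothelial caveolae (-0.04 ± 0.28, adjusted p = 0.947). With 1 library left out the counts were 2 to 4 higher and 2 to 9 lower. The number that fell was 2 without creeping fat 1 and 3 without creeping fat 3 or control 3.

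Of 14 genes that supply sterol and membrane lipid, 1 rose and 2 fell, against 9.35% and 6.81% of all genes, with a median of -0.04. The number that fell was 1 without any 1 creeping fat library or control 3, and 3 without control 2. Hmgcs1, an early enzyme of cholesterol synthesis, fell by 1.89 ± 0.27 (15.8 ± 3.00 FPKM in creeping fat against 63.0 ± 19.5 FPKM in controls, adjusted p = 0.00627). Npc1, which exports cholesterol from lysosomes, rose by 0.87 ± 0.21 (16.7 to 21.9 FPKM in creeping fat against 8.49 to 13.7 FPKM in controls, adjusted p = 0.0322), a call that was lost without any 1 library but control 2.

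Likeness of profile was measured over the 6 libraries as the root mean square distance between log2(FPKM + 1) values, each gene centred on its own mean. Among the members, Cav1 and Cav2 were the closest pair, at 0.08, and Cav1 and Ehd4 the farthest, at 1.31. Ehd2 lay 0.18 from both Cavin1 and Cavin3, while Cavin2 lay 0.25 from Cav2 and 0.49 from Cavin1. So the 6 genes other than Ehd4 ran from the caveolins and Cavin2 on one side to Cavin1, Cavin3 and Ehd2 on the other. Of 8420 other genes that averaged 5 FPKM or more, the nearest to Cav1 were ATP6 at 0.17, Fzd4 at 0.18 and Fgfrl1 at 0.19. Nearest to Cav2 were Fzd4 and Fgfrl1, each at 0.13, and Apcdd1 at 0.15. Nearest to Cavin1 were Derl1, Isca2 and Ap3s1 (0.08 to 0.10), to Cavin2 Cdkn2c, Hrct1 and Tmem135 (0.04 to 0.08), and to Cavin3 Thbd, Tuba1a and Rtl8b (0.11 to 0.13). Nearest to Ehd2 were Tmem43, Kctd12b and Cd151 (0.09 to 0.10), and to Ehd4 Coro1c, Golph3 and Snx1 (each 0.05). All these distances share the same 6 libraries and the same difference between groups.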

How the data were processed

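RNA of 6 mouse adipose samples was sequenced, 3 of creeping fat and 3 of control mesenteric fat, grouped by the sample titles. The authors deposited 1 table of FPKM values, with ribosomal RNA removed and a stranded total RNA kit per the labels' protocols. The submitters' processing notes name mm10. The aligner, counter, annotation and strand setting are not given in the sources used here. No gene of the table shares annotated exon bases with a member in GENCODE M21, though an untabulated gene on the opposite strand of Cavin3 shares 374.

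Whole reads were recovered from the FPKM for 18707 of 18714 genes above 0, within 0.002 reads, as the smallest whole numbers in proportion. In tests on simulated data with known reads, 1416 of 1481 genes were recovered exactly. The recovered reads were 94.86% to 95.55% of the estimated totals. No count model was run on the FPKM.

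Values were transformed to log2(FPKM + 1). Those reaching 1 FPKM in 3 or more of the 6 libraries, 12812 genes, were fitted with limma 3.58.1 in R 4.3.3 (group only, eBayes with trend, two-sided, Benjamini-Hochberg). On simulated data for this comparison, with 12812 genes, 85 of 100 changes of 2 and 88 of 100 changes of 3 (log2) were called in the right direction, with 7 false calls. The members' differences here, of 1.70 or less in size, were smaller than those simulated. Noise was drawn for each gene on its own, so a shift of 1 library shared by many genes was not simulated. The same fit was run on values relative to Cav1, to the mean of 22 adipocyte markers and to the mean of 18 blood endothelial markers. An exact permutation test of 3 against 3 cannot give a two-sided p under 0.1, so none was run. The members, lists and tests were chosen with earlier results of these data known. All members were named. Of each pathway list, the called gene with the largest change in each direction was named, or, where none was called in a list of 12 or fewer, all of 3 FPKM or more. Per member, the 3 genes of nearest profile were named.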

Additional observations from a re-analysis of the deposited data

How the results depend on the processing

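Alternatives were another pseudocount (0.1), no filter, a mean of at least 5 FPKM, quantile normalization, rescaling without seminal vesicle and pancreas markers, a replicate block, voom on recovered reads, each library left out, creeping fat 2 and control 2 left out together, and, chosen after the data were seen, no moderation of the errors. Members called lower, 2 of 7, were 1 with no filter, 6 with creeping fat 2 and control 2 left out, 0 with no moderation and 0 to 6 with 1 library left out. Members called higher, 1 of 7, were 0 to 1 with 1 library left out. Genes called higher and lower, 1198 and 872, were 2713 and 1731 with both libraries left out, 589 and 314 with no moderation, and 576 to 2896 and 287 to 1857 with 1 library left out.

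The labels do not say that replicate numbers pair the samples. Deviations of same-numbered samples from their group means correlated at -0.18, -0.18 and -0.08. With 3 libraries a group these values cannot exclude a shared batch. With the replicate block 636 genes were higher and 378 lower, and 0 members were called higher and 1 lower (Cavin2); Cav1 had an adjusted p of 0.0994, and 0 blood endothelial markers were called. Under the same block 0 members were called higher relative to Cav1 and 0 lower relative to the endothelial markers. In the labels, same-numbered samples share only a number.

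Relative to Cav1, members called higher (1) were 2 after quantile normalization, 4 with both libraries left out, 0 with no moderation and 0 to 4 with 1 library left out. Relative to endothelial markers, members called lower (1) were 2 with no filter, 3 with both left out, 0 with no moderation and 0 to 4 with 1 left out. Directions changed for differences near 0. Relative to Cav1, Cav2 was 0.079 after quantile normalization, 0.045 with both left out and -0.090 to 0.014 with 1 left out, and Cavin2 was -0.11 to 0.37 with 1 left out. Relative to endothelial markers, Cavin1 was 0.030 with a pseudocount of 0.1, 0.045 by voom and -0.32 to 0.21 with 1 left out. Ehd2 was 0.0088 by voom and -0.48 to 0.22 with 1 left out, and Cavin3 was -0.33 with both left out and -0.33 to 0.56 with 1 left out. The causes were not tested. In no alternative run did a member's difference between creeping fat and control change sign, and 3 libraries a group limit the precision more than depth does.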
